A study of Mus musculus with 35 samples.

Results

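The SMAD family of transcription factors was followed through 35 RNA-seq libraries of mouse pancreatic ductal adenocarcinoma (PDAC) cells. Its 8 members, *Smad1*, *Smad2*, *Smad3*, *Smad4*, *Smad5*, *Smad6*, *Smad7* and *Smad9*, were found by gene symbol among the 53465 genes of the count table, each with a single identifier. The cells, called KC-shSmad4, came from tumors of mice with *Ptf1a*-Cre, which acts in the pancreatic lineage, a *Rosa26* LSL-rtTA3-IRES-mKate2 reporter and a *Col1a1* homing cassette with 1 of 2 GFP-linked shRNAs against *Smad4* that doxycycline (Dox) switches on. They derive from male embryonic stem cells of mixed C57BL/6J and 129 background, carry firefly luciferase, and all groups share these alleles. Cell lines from primary tumors were injected into female Foxn1nu nude mice, 6 to 8 weeks old, which lack mature T cells, so no group is a tumor that spread on its own.

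Injection into the pancreas gave primary tumors, into the spleen liver metastases and into the tail vein lung metastases, with Dox chow from before transplantation in all hosts. By the study's description, groups labelled Smad4ON were taken off Dox at 4 weeks (pancreas), 5 weeks (liver) or 6 weeks (lungs) and collected 7 or 14 days later. Groups labelled Smad4OFF stayed on Dox by the same description. Cells positive for mKate2 were sorted before RNA was extracted. The groups labelled Smad4OFF and Smad4ON of day 7 held 3 and 2 pancreatic, 2 and 3 liver, and 4 and 2 lung libraries, and those of day 14 held 2 and 3, 3 and 3, and 4 and 4. The labels number the mice but do not say which cell line or which shRNA each library carried.

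SMAD proteins carry signals of the TGF-β superfamily from the membrane to the nucleus. Activated TGF-β and activin receptors phosphorylate the receptor-regulated SMADs *Smad2* and *Smad3*, and BMP receptors phosphorylate *Smad1*, *Smad5* and *Smad9*. These bind the common partner *Smad4* and regulate target genes, among them the inhibitory members *Smad6* and *Smad7*, which restrain the receptors. In the pancreas, *SMAD4* is among the tumor suppressor genes most often lost in PDAC, and TGF-β drives growth arrest and mesenchymal change through it.

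The promoter windows of *Smad6*, *Smad9* and *Smad3* are shown because SMAD proteins bind short DNA elements, and they were not related to any level or organ difference. They run from 250 bases before to 30 bases after the RefSeq start (GRCm38.p6, 280 bases), and capitals mark matches, on either strand, to CAGAC (reverse GTCTG), the palindrome GTCTAGAC (its own reverse, which holds no full CAGAC or GTCTG) or GGCGCC (its own reverse).
Smad6 promoter, chr9:64022030-64022309, minus strand: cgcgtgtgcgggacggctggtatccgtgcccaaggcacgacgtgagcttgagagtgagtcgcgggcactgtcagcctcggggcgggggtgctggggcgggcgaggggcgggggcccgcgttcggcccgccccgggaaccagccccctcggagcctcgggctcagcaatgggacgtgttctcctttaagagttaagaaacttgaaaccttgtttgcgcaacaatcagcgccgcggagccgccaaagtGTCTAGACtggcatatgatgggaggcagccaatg
Smad9 promoter, chr3:54755332-54755611, plus strand: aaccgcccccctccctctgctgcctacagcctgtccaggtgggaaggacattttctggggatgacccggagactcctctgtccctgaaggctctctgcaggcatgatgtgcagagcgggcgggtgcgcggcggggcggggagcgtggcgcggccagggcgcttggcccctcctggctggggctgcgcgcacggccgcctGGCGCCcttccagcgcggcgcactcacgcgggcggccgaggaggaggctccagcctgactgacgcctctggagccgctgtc
Smad3 promoter, chr9:63757965-63758244, minus strand: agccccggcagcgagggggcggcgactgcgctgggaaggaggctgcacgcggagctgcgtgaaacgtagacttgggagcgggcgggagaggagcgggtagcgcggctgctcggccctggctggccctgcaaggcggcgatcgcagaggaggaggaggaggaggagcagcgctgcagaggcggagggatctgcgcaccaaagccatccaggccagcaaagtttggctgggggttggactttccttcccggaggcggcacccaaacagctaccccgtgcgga
The *Smad6* window held the palindrome once, its first base 4 bases before the start, and 63 of 32851 windows of all genes (0.192%) held it. The *Smad9* window held GGCGCC once, as did 10.9% of all windows, and the *Smad3* window held none of the 3 elements. The *Smad1* window also held none, and of 3 windows of *Smad5* starts, 2 overlapping ones held GGCGCC and the other held CAGAC, which 46.8% of all windows held. These letters are a description of the windows, and binding was not measured in these libraries.

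The members lie on 5 mouse chromosomes of GRCm38. *Smad3* (chromosome 9, 63646767 to 63757994, minus strand) and *Smad6* (chromosome 9, 63953076 to 64022059, minus strand) are neighbors, and *Smad2* (76241580 to 76305731, plus strand), *Smad4* (73639009 to 73703780, minus strand) and *Smad7* (75367529 to 75395935, plus strand) share chromosome 18. *Smad1* lies on chromosome 8 (79338395 to 79399518, minus strand), *Smad5* on chromosome 13 (56703010 to 56742377, plus strand) and *Smad9* on chromosome 3 (54755582 to 54801257, plus strand). *Smad5* alone overlaps other annotated genes, 3 small predicted genes with 10 to 21 counts each over all libraries, against 70753 counts of *Smad5*.

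Library totals ran from 11885461 to 43571007 counts on genes (median 19415320), and no pair of libraries was identical. Levels are given as CPM, counts scaled to a common library size after TMM scaling. A gene passed a test when its Benjamini-Hochberg adjusted p in edgeR's quasi-likelihood test, over all genes tested, was under 0.05, and every label contrast is Smad4ON minus Smad4OFF. Some libraries stood apart. A liver library labelled Smad4OFF on day 7, replicate 2, was sequenced paired-end and its summed level of 10 fibroblast marker genes was 35899 CPM, against 262 to 4329 CPM in the other 10 liver libraries. Counts of *mt-Co3*, a mitochondrial gene, were present in 10 libraries (4 liver, 6 lung) and at 0 in the other 25. The targeted gene itself went against the labels, as the next values show.

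*Smad4*, the common partner of all receptor-regulated SMADs and the target of the shRNA, had less mRNA in every library labelled Smad4ON than in every library labelled Smad4OFF. In the pancreas on day 7, its level was 104, 114 and 94.5 CPM in the libraries labelled Smad4OFF and 22.4 and 20.0 CPM in those labelled Smad4ON. On day 14 the corresponding levels were 101 and 109 CPM and 19.3, 22.3 and 21.4 CPM. The pancreas thus held 2 tight levels that did not approach each other.

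In the liver, *Smad4* stood at 84.0 and 119 CPM with the label Smad4OFF and at 15.6, 14.8 and 15.9 CPM with the label Smad4ON on day 7. On day 14 the liver libraries had 143, 94.0 and 103 CPM and 15.7, 15.5 and 14.8 CPM. The highest level of all, 143 CPM, was in a liver library labelled Smad4OFF on day 14, and the lowest, 14.8 CPM, in liver libraries labelled Smad4ON.

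Lung metastases labelled Smad4OFF had 74.9, 104, 69.9 and 79.0 CPM of *Smad4* on day 7, and those labelled Smad4ON had 18.9 and 16.1 CPM. On day 14 the levels were 119, 105, 120.0 and 97.1 CPM and 15.8, 17.7, 18.01 and 20.3 CPM. Over all organs and days, the 18 libraries labelled Smad4OFF spanned 69.9 to 143 CPM (102 ± 18.1, SD) and the 17 labelled Smad4ON spanned 14.8 to 22.4 CPM (17.9 ± 2.64, SD). The order is the reverse of the labels, since Dox switches the shRNA on, and no label was changed: each contrast below keeps the labels as deposited, and its direction has to be read with this in mind.

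**Figure D1:**
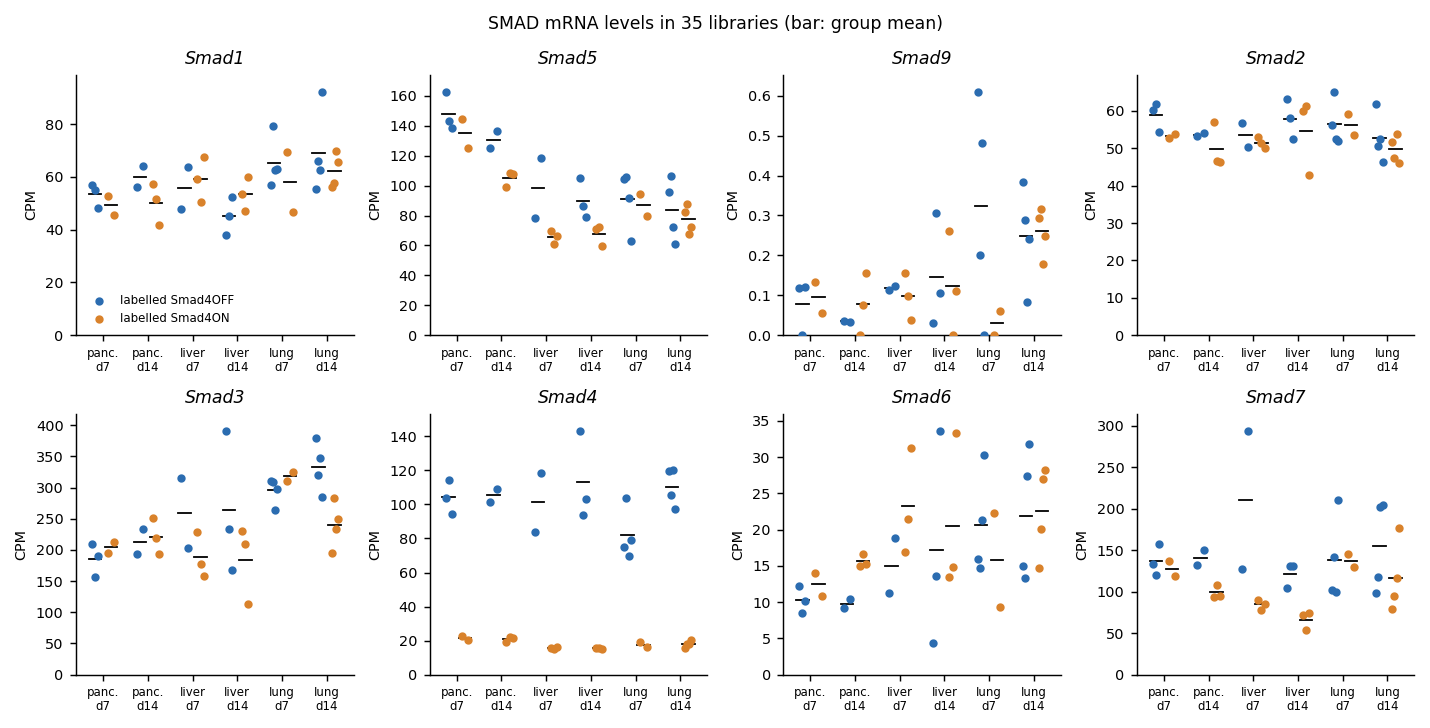
Level of each SMAD gene in each of the 35 libraries, in CPM on linear axes that start at 0 and differ between genes, by organ, day and label, with 1 point per library and a bar at the group mean. *Smad4* separates completely between the labels (69.9 to 143 CPM against 14.8 to 22.4 CPM), while the other members overlap over the whole series.

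Averaged over organs and days, 3 of 8 members passed the label contrast, *Smad4*, *Smad7* and *Smad5*, all lower with the label Smad4ON (9.64% of all genes passed as lower). The average label effect on *Smad4*, with organ and day as strata, was -2.53 ± 0.08 (log2, SE; adjusted p = 2.13e-21), the lowest p of 17547 genes tested, of which 19.8% passed. *Smad4* was the only gene tested whose level was lower in all 17 libraries labelled Smad4ON than in all 18 labelled Smad4OFF, 0.0057% of those tested. A further 4 genes were higher without overlap (0.0228%). They were *Gli2* (+4.22 on the log2 scale), *Vstm2b* (+3.42), *Slc29a3* (+1.87) and *Pax9* (+1.75), picked here after their values were seen. Within each organ and day, the fitted difference of *Smad4* ranged from -2.21 in the lungs on day 7 to -2.93 in the liver on day 14.

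The labels did not overlap for *Smad4* in any of the 6 comparisons of 1 organ and day. Genes lower without overlap made up 22.3% and 25.2% of those tested for the pancreas (days 7 and 14), 18.8% and 6.52% for the liver, and 6.67% and 3.1% for the lungs. The *Smad4* difference passed in 4 of the 6 separate comparisons. Pancreatic libraries gave -2.28 ± 0.13 on day 7 (adjusted p = 0.00325, 2.24% of genes passed) and -2.31 ± 0.10 on day 14 (adjusted p = 5.4e-05, 12.9% passed). Liver libraries gave -2.79 ± 0.20 on day 7 (adjusted p = 0.0477, 0.444% passed), and lung libraries -2.63 ± 0.13 on day 14 (adjusted p = 0.000119, 0.0271% passed). For liver libraries of day 14 (adjusted p = 0.0625) and lung libraries of day 7 (adjusted p = 0.151), 0 genes passed in edgeR. Of 14947 and 15193 genes tested, 1447 and 793 had an unadjusted p under 0.05, and a share of 0.05 arises with no difference at all. DESeq2 called 357 and 114, *Smad4* among them. The liver call on day 7 was lost in edgeR when any of the 3 libraries labelled Smad4ON was left out (adjusted p = 0.131 to 0.242), and the liver call on day 14 was gained without the library labelled Smad4OFF with 143 CPM, at -2.72 (adjusted p = 0.0281). In the lungs on day 14, where same-numbered libraries deviated together, a block for the mouse number kept *Smad4* at -2.63. It raised the genes passing from 4 to 204, with 0 further members among them. Whether the numbers there pair mice or only follow the *mt-Co3* counts was not tested. With a 2-fold threshold added, *Smad4* alone of the members passed on days 7 and 14 in pancreatic libraries (1.33% and 4.64% of genes), in those 2 liver and lung comparisons and on average over all libraries (4.84%).

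*Smad4* levels differed little between organs. The liver stood at -0.23 ± 0.09 (log2, SE; adjusted p = 0.0365) and the lungs at -0.21 ± 0.09 (adjusted p = 0.0417) relative to the pancreas, and liver and lungs differed by -0.02 ± 0.08. The 2 calls were kept in 27 and 28 of 35 refits that left out 1 library (adjusted p up to 0.0685 and 0.0768). In libraries labelled Smad4OFF alone, the liver difference was -0.04 (adjusted p = 0.873), and in those labelled Smad4ON alone it was -0.47 (adjusted p = 0.000458). The response to the label did not differ detectably between liver and lungs, at -0.52 ± 0.28 on day 7 (adjusted p = 0.328) and, a week later, -0.30 ± 0.23 (adjusted p = 1).

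Across the family, levels per kilobase of exon ordered the members from *Smad3* to *Smad9*. The medians over 35 libraries were 42.1 CPM per kb for *Smad3*, 26.3 for *Smad7*, 15.0 for *Smad2*, 12.4 for *Smad5*, 9.09 for *Smad1*, 4.68 for *Smad6* and 0.0219 for *Smad9*. *Smad4*, whose labels do not overlap, had a median of 27.9 CPM per kb in the libraries labelled Smad4OFF, between *Smad7* (29.0) and *Smad2* (15.3) there. In those labelled Smad4ON it had 4.76 CPM per kb, between *Smad6* (5.20) and *Smad9* (0.0207). Neighbors in the order without *Smad4* overlapped in range over the libraries, apart from *Smad6* (1.34 to 10.5 CPM per kb) and *Smad9* (0 to 0.114). The length of *Smad2* is uncertain, since the deposited table gives 3549 bases and GENCODE M21 8781 bases, and the longer length lowers its level by 1.31 on the log2 scale, to between *Smad1* and *Smad6*. As a share of all SMAD mRNA per kilobase, *Smad4* made up 18.3% (median of the libraries labelled Smad4OFF, 12.97 to 23.0%) or 4.41% (labelled Smad4ON, 3.39 to 5.71%), and *Smad3* made up 31.9% and 36.1%.

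The balance of *Smad4* to its partners followed *Smad4* itself. The log2 ratio of *Smad4* to the summed receptor-regulated SMADs, per kilobase, was -1.68 ± 0.30 (SD) in the 18 libraries labelled Smad4OFF and -3.97 ± 0.23 in the 17 labelled Smad4ON. The values ran from -2.24 to -1.20 and from -4.40 to -3.59, with no overlap. These ratios are a description and were given no test.

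**Figure D2:**
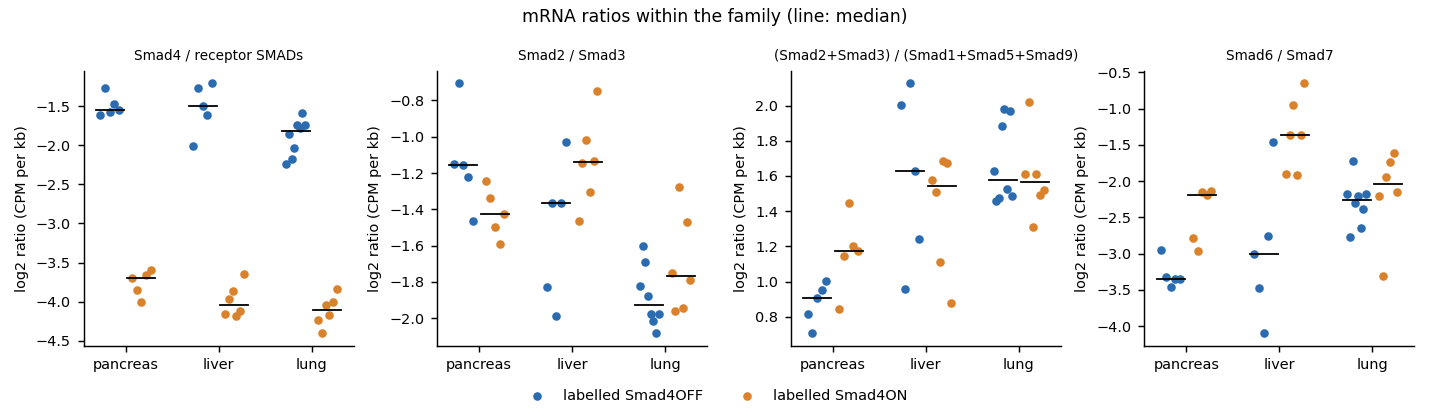
Log2 ratios between SMAD members per library, from CPM per kilobase, by organ and label, with 1 point per library and a line at the median of each organ and label. *Smad4* to receptor-regulated SMADs separates the labels without overlap (-2.24 to -1.20 against -4.40 to -3.59), and *Smad2* to *Smad3* is lowest in the lungs (mean -1.80).

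*Smad2*, which carries TGF-β and activin signals, was the steadiest member. It ranged from 42.9 to 65.1 CPM over all libraries (53.9 ± 5.39, SD), with medians of 53.95 CPM (pancreas), 53.04 CPM (liver) and 52.5 CPM (lungs). Its label effect was -0.08 ± 0.05 (log2, SE; adjusted p = 0.295), and no contrast of label, organ or day passed. In the pancreas on day 7 its 2 libraries labelled Smad4ON, at 52.8 and 53.8 CPM, lay under the 3 labelled Smad4OFF, at 60.3, 61.8 and 54.4 CPM, but 22.3% of genes tested were lower without overlap there.

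*Smad3*, the TGF-β SMAD that binds DNA directly, was the most abundant member and varied with organ. In lung libraries it was 310.4, 309, 265 and 298 CPM (day 7, labelled Smad4OFF), 310.0 and 326 CPM (day 7, Smad4ON), 380.3, 319.7, 347 and 284 CPM (day 14, Smad4OFF) and 196, 284, 233 and 249 CPM (day 14, Smad4ON). In pancreatic libraries it was 209, 157 and 189 CPM, 196 and 212 CPM, 193 and 233 CPM and 251, 219 and 194 CPM in the same order. Most lung libraries exceeded every pancreatic one, and the ranges met at 196 to 251 CPM.

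The liver spread widest for *Smad3*, with 315 and 203 CPM and 229, 177 and 159 CPM on day 7 and 391, 233 and 167 CPM and 230.4, 210.1 and 113 CPM on day 14, in the order Smad4OFF and Smad4ON. Relative to the pancreas, *Smad3* was higher in the lungs by 0.48 ± 0.13 (log2, SE; adjusted p = 0.0031), where 48.2% of genes passed, and it passed in each of 35 refits that left out 1 library. Mean levels were 314 ± 36.1 CPM (SD) in lung and 196 ± 27.8 CPM in pancreatic libraries labelled Smad4OFF. With the label Smad4ON they were closer, at 266 ± 49.2 CPM and 214 ± 22.9 CPM. Liver against pancreas gave 0.07 ± 0.14 (adjusted p = 0.692, 46.6% passed) and liver against lung -0.41 ± 0.13 (adjusted p = 0.021, 18.6% passed). The liver and lung call was lost only without lung replicate 1 labelled Smad4ON of day 7, at -0.39 (adjusted p = 0.051), in 35 refits that left out 1 library. This difference was -0.19 (adjusted p = 0.314) among libraries without *mt-Co3* counts, with which *Smad3* moved in the liver (median 163 CPM in 4 libraries with them and 230.4 CPM in 7 without).

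The label effect on *Smad3* was -0.22 ± 0.11 (adjusted p = 0.15) and passed in no comparison. In the lungs on day 14 its libraries labelled Smad4ON were all lower than those labelled Smad4OFF, at -0.47 ± 0.15 (adjusted p = 0.317), where 3.1% of genes did the same. The log2 ratio of *Smad2* to *Smad3* per kilobase averaged -1.28 ± 0.25 (SD) for pancreatic, -1.31 ± 0.36 for liver and -1.80 ± 0.23 for lung libraries.

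*Smad5*, a BMP SMAD, had the clearest organ difference of the family. Its levels in the pancreas were 163, 143 and 138 CPM (day 7, labelled Smad4OFF), 145 and 125 CPM (day 7, Smad4ON), 125 and 136 CPM (day 14, Smad4OFF) and 99.2, 108 and 108 CPM (day 14, Smad4ON). In the liver they were 78.3 and 118 CPM, 69.5, 61.1 and 66.6 CPM, 105, 86.4 and 78.8 CPM and 70.9, 72.6 and 59.7 CPM, in the same order. Of the liver libraries, only the paired-end one (118 CPM) and 1 labelled Smad4OFF on day 14 (105 CPM) reached the pancreatic range.

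Lung libraries had 104, 106, 92.0 and 62.8 CPM, 94.2 and 79.5 CPM, 95.7, 107, 72.4 and 60.7 CPM and 82.5, 87.8, 67.8 and 72.1 CPM of *Smad5*. *Smad5* was lower than in the pancreas by -0.70 ± 0.10 among liver (log2, SE; adjusted p = 2.71e-06) and by -0.61 ± 0.10 among lung libraries (adjusted p = 6.38e-06), and both passed without any 1 library. Within libraries without *mt-Co3* counts the differences were -0.72 (adjusted p = 1.01e-07) and -0.47 (adjusted p = 1.62e-05), and liver and lungs then also differed, by -0.25 (adjusted p = 0.0293, against -0.09 and 0.574 over all libraries).

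*Smad5* was also lower with the label Smad4ON, by -0.26 ± 0.08 on average (adjusted p = 0.0214). Without the paired-end library the effect was -0.21 (adjusted p = 0.0531), within the 10 libraries with *mt-Co3* counts -0.16 (adjusted p = 0.727) and within the 25 without -0.26 (adjusted p = 0.00126). The labels did not overlap in the liver on day 7 (lower without overlap: 18.8% of genes), in the liver on day 14 (6.52%) or in the pancreas on day 14 (25.2%), and the comparisons taken alone gave adjusted p from 0.0678 to 0.998. The pancreas on day 14 passed without replicate 1 labelled Smad4ON, at -0.26 (adjusted p = 0.0392). From day 7 to day 14 in the pancreas, *Smad5* fell by 0.27 on the log2 scale (adjusted p = 0.0491, 11.4% of genes passed and 0.735% passed with over 2-fold), a call kept in 1 of 10 refits that left out 1 library (without replicate 3 labelled Smad4OFF of day 7; adjusted p = 0.0555 to 0.146 in the other 9).

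*Smad1*, the other well-expressed BMP SMAD, ranged from 38.1 to 92.3 CPM. Its median was 53.8 CPM for pancreatic libraries (41.9 to 64.1), 52.5 CPM for those of the liver (38.1 to 67.6) and 62.8 CPM for those of the lungs (46.7 to 92.3). The lungs were higher than the pancreas by 0.28 ± 0.10 (log2, SE; adjusted p = 0.0173) and the liver lower than the lungs by -0.28 ± 0.10 (adjusted p = 0.0427), although the organs overlapped and these calls held in 30 and 21 of 35 refits that left out 1 library (adjusted p up to 0.082 and 0.103). With *mt-Co3* counts as a covariate the lung difference was 0.20 (adjusted p = 0.0915). The label left *Smad1* at -0.06 ± 0.08 (adjusted p = 0.652).

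*Smad9*, the third BMP SMAD, was barely detected. It had 116 counts in all, 0 in 5 libraries and 3 or fewer in 22 of 35. Pancreatic libraries had 12 counts in 10 libraries and never over 2, liver libraries 40 in 11 and lung libraries 64 in 14. The lung difference from the pancreas had an adjusted p of 0.0177 in edgeR, but with pancreatic libraries at or under the 3-count floor no fold change is given and the call is not read as a result.

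TGF-β SMADs outweighed BMP SMADs in all libraries. The log2 ratio of *Smad2* plus *Smad3* to *Smad1*, *Smad5* and *Smad9*, per kilobase, was 1.02 ± 0.22 (SD) for pancreatic, 1.49 ± 0.40 for liver and 1.64 ± 0.23 for lung libraries. The label groups were at 1.43 ± 0.46 (Smad4OFF) and 1.40 ± 0.31 (Smad4ON), within their spread.

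*Smad7*, the inhibitor that recruits ubiquitin ligases to TGF-β receptors and is itself a TGF-β target, was lower with the label Smad4ON on average and in the pancreas on day 14. Its levels in liver libraries were 127 and 294 CPM (Smad4OFF) and 89.8, 77.9 and 85.5 CPM (Smad4ON) on day 7. On day 14 they were 104, 130.3 and 131 CPM and 71.3, 53.8 and 73.6 CPM. No liver library labelled Smad4ON reached one labelled Smad4OFF, while 18.8% (day 7) and 6.52% (day 14) of genes were lower without overlap there, and neither comparison passed for *Smad7*. The highest value was that of the paired-end library.

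In the pancreas *Smad7* was at 133, 119.5 and 157 CPM (Smad4OFF) and 136 and 119 CPM (Smad4ON) on day 7. On day 14 it was at 132 and 149 CPM and 94.0, 108 and 94.6 CPM. The labels overlapped on day 7 and not on day 14, when 25.2% of genes were lower without overlap. In the lungs *Smad7* was at 101, 141, 99.8 and 211 CPM and 145 and 130.1 CPM on day 7, and at 97.9, 118, 201 and 204 CPM and 79.5, 94.5, 117 and 176 CPM on day 14, with the labels overlapping on both days.

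Averaged over organs and days, the label effect on *Smad7* was -0.53 ± 0.14 (log2, SE; adjusted p = 0.00825), and it passed in all 35 refits that left out 1 library (-0.59 to -0.41). It was -0.36 (adjusted p = 0.0165) among the 25 libraries without *mt-Co3* counts and -0.86 (adjusted p = 0.324) among the 10 with them. Taken alone, only the pancreas on day 14 passed, at -0.49 ± 0.10 (adjusted p = 0.0185), and that call was lost without either library labelled Smad4OFF or without replicate 3 labelled Smad4ON (adjusted p = 0.0585 to 0.158). The liver gave -1.39 ± 0.36 on day 7 (adjusted p = 0.0927) and -0.91 ± 0.18 at the later time (adjusted p = 0.357), and without the paired-end library the first was -0.70 (adjusted p = 0.0853). Without the other liver library labelled Smad4OFF of day 7, which leaves the paired-end one alone in its group, *Smad7* passed at -1.82 (adjusted p = 0.00352) and *Smad5* at -0.87 (adjusted p = 0.0222).

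The lungs gave -0.01 ± 0.36 on day 7 (adjusted p = 0.999) and -0.42 ± 0.33 at the later time (adjusted p = 0.756) for *Smad7*. The difference between liver and lungs in this response was -1.32 ± 0.52 on day 7 (adjusted p = 0.178, 1.86% of genes passed) and -0.48 ± 0.44 on day 14 (adjusted p = 1, 0% passed), so that an organ difference of the response was not shown. On day 14, 0 genes passed the test of this difference, 478 of 15869 tested had an unadjusted p under 0.05 and DESeq2 called 4.

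*Smad6*, which inhibits mainly BMP signaling, moved the other way in the pancreas. Its levels there were 12.2, 8.44 and 10.1 CPM (Smad4OFF) and 14.03 and 10.9 CPM (Smad4ON) on day 7. On day 14 they were 9.19 and 10.4 CPM and 14.97, 16.7 and 15.3 CPM. The day 14 groups did not overlap (21.9% of genes were higher without overlap), at +0.70 ± 0.15 (log2, SE; adjusted p = 0.0207), a call that held only without replicate 1 labelled Smad4ON when 1 of the 5 libraries was left out (adjusted p = 0.0599 to 0.182 without the others).

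In the liver *Smad6* was at 11.3 and 18.8 CPM (Smad4OFF) and 16.98, 21.4 and 31.3 CPM (Smad4ON) on day 7 and at 4.29, 13.6 and 33.6 CPM and 13.4, 14.9 and 33.3 CPM on day 14. In the lungs it was at 15.9, 14.7, 21.4 and 30.3 CPM and 22.3 and 9.34 CPM on day 7 and at 14.99, 13.3, 27.4 and 31.9 CPM and 14.7, 20.1, 27.0 and 28.2 CPM on day 14. The 8 highest values, 27.0 to 33.6 CPM, came from both organs and both labels, and all 8 libraries had *mt-Co3* counts. In liver and lungs together, *Smad6* had a median of 29.2 CPM (9.34 to 33.6) in the 10 libraries with *mt-Co3* counts and 14.9 CPM (4.29 to 22.3) in the 15 without. The average label effect was +0.22 ± 0.20 (adjusted p = 0.496), and +0.49 (adjusted p = 0.0123) among libraries without those counts.

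The median of *Smad7* was also higher with *mt-Co3* counts, at 189 CPM (117 to 211) with them and 101 CPM (79.5 to 145) without in the lungs. In the liver it was 108 CPM (73.6 to 294) in 4 libraries with these counts and 89.8 CPM (53.8 to 130) in 7 without. The ranges overlapped in both organs, and the 294 CPM came from the paired-end library. *Smad5* had medians of 69.9 CPM with and 95.0 CPM without in the lungs, and 72.7 CPM and 72.6 CPM in the liver. The part of *mt-Co3* in any of these levels was not tested.

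*Smad6* was higher than in the pancreas by 0.66 ± 0.26 among liver libraries (adjusted p = 0.0338, kept in 24 of 35 refits that left out 1 library) and by 0.80 ± 0.24 among lung libraries (adjusted p = 0.00752, kept in 35 of 35). All pancreatic libraries lacked *mt-Co3* counts, and among libraries without them the differences were 0.12 (adjusted p = 0.604) and 0.54 (adjusted p = 0.009). With these counts as a covariate neither passed, at 0.26 (adjusted p = 0.326) and 0.44 (adjusted p = 0.0734). *Smad7* gave -0.19 ± 0.18 (adjusted p = 0.406) for liver against pancreas, -0.43 (adjusted p = 0.00327) among libraries without *mt-Co3* counts and -0.42 (adjusted p = 0.0213) without the paired-end library. Without the paired-end library, *Smad7* was lower in the liver than in the lungs by -0.53 (adjusted p = 0.00483), against -0.32 (adjusted p = 0.2) with it.

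The ratio of *Smad6* to *Smad7* within a library was higher with the label Smad4ON in the pancreas and liver, and in the lungs its direction differed by day. The log2 ratio of *Smad6* to *Smad7*, per kilobase, was -3.29 ± 0.19 (SD, n = 5) and -2.45 ± 0.39 (n = 5) in the pancreas for the labels Smad4OFF and Smad4ON, and -2.96 ± 0.98 (n = 5) and -1.36 ± 0.51 (n = 6) in the liver. In the lungs it was -2.24 ± 0.43 (n = 4) and -2.75 ± 0.78 (n = 2) on day 7 and -2.35 ± 0.21 (n = 4) and -1.86 ± 0.23 (n = 4) on day 14. These values are a description, without a test. The medians of both genes were higher with *mt-Co3* counts in liver and lungs, and the part of these counts was not tested.

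**Figure D3:**
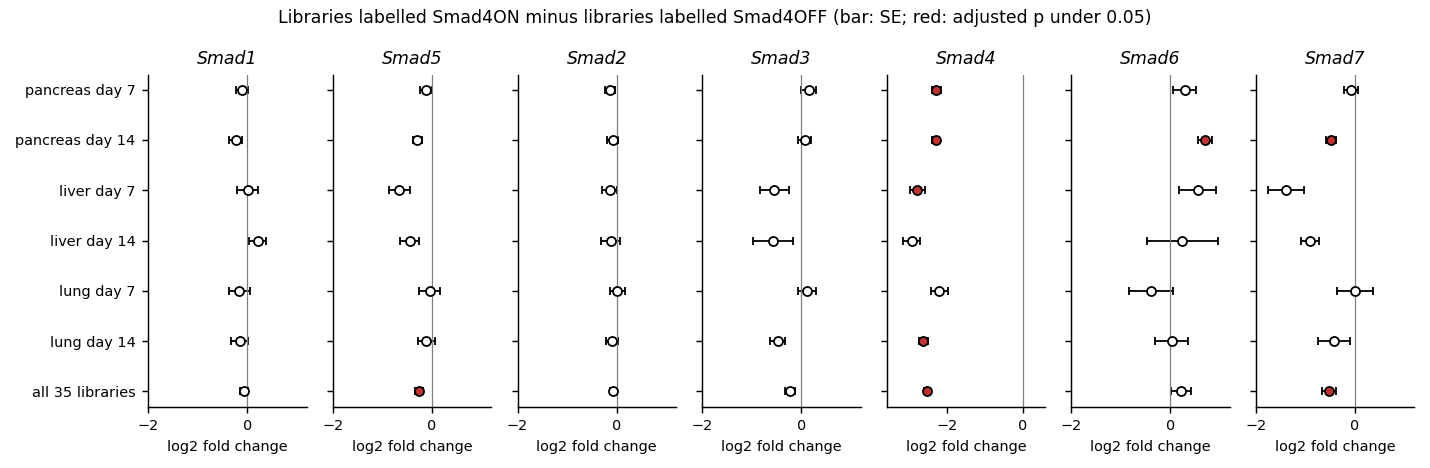
Label effect on 7 SMAD members (*Smad9* is not drawn), Smad4ON minus Smad4OFF, as log2 fold change with bars of 1 standard error from edgeR, in each organ and day and averaged over all 35 libraries, with filled red points where the adjusted p is under 0.05 and a different horizontal range for *Smad4*. *Smad4* lies between -2.93 and -2.21 in every comparison, *Smad7* is lowest in the liver on day 7 (-1.39), and *Smad2* stays between -0.14 and 0.02.

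The 3 organ contrasts share libraries and are given side by side. Against the pancreas, 3 of 8 members passed in the liver (*Smad4* and *Smad5* lower, *Smad6* higher; 46.6% of all genes passed) and 6 of 8 in the lungs (*Smad4* and *Smad5* lower, *Smad1*, *Smad3*, *Smad6* and *Smad9* higher; 48.2%). Liver against lung gave 2 of 8 (*Smad1* and *Smad3* lower; 18.6%). At over 2-fold the fitted values gave 0 (21.1%), 1 (22.1%) and 0 (8.02%). The 1 was *Smad9*, with 12 counts in 10 pancreatic libraries, so that neither its call nor its fitted size is read as a result. With 8 members, these counts do not set the family apart from the share of all genes.

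Other cell types' markers moved with the organ. Summed over 10 genes each, fibroblast markers had 8851 to 24478 CPM in the pancreas, 262 to 4329 CPM in the liver without the paired-end library and 162 to 2004 CPM in the lungs. Acinar markers had 745 to 3475 CPM in the pancreas and 3.93 to 17.2 CPM elsewhere, apart from 410 CPM in the paired-end library. Carcinoma and ductal markers had 3070 to 8765 CPM in the pancreas and 6991 to 15454 CPM in the lungs. In the liver they had 13224 to 19635 CPM, apart from 4362 CPM in the paired-end library. *Epcam* and keratin markers of the tumor cells were above 0 in every library. Lung epithelium markers were at 140 to 804 CPM in the lungs and 17.2 to 401 CPM in the other organs. Hepatocyte markers were at 388 to 1407 CPM in the liver, apart from 149 CPM in the paired-end library, 399 to 767 CPM in the lungs and 165 to 403 CPM in the pancreas. Single genes carried these sums unevenly. Medians over all libraries were 283 CPM for *Hnf4a*, 239 CPM for *Apob* and 0.34 CPM for *Alb*, and 79.2 CPM for *Sftpd* and 0.26 CPM for *Sftpc*. Fewer cells of a type and less RNA per cell cannot be told apart in sorted bulk libraries, and the part of other cells in the SMAD levels was not tested.

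**Figure D4:**
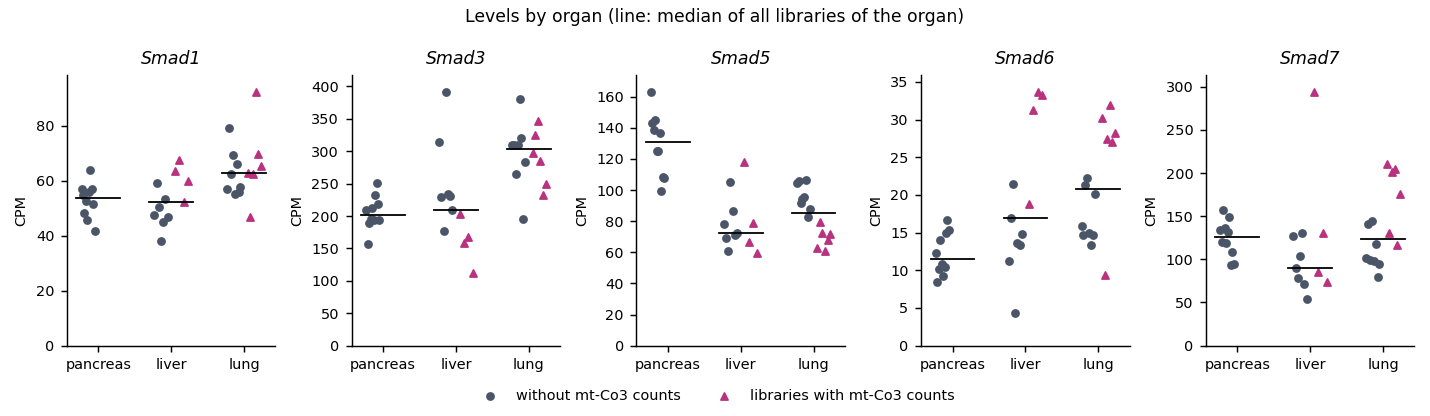
Levels of *Smad1*, *Smad3*, *Smad5*, *Smad6* and *Smad7* by organ, in CPM on linear axes that start at 0, with 1 point per library, triangles for the 10 libraries with *mt-Co3* counts, circles for the 25 without and a line at the median of each organ. *Smad5* is highest in the pancreas (99.2 to 163 CPM), *Smad3* has its highest median in the lungs (304 CPM), and the 8 highest values of *Smad6* (27.0 to 33.6 CPM) are all triangles.

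The day contrasts took both labels together, and by the study's description only the groups labelled Smad4ON had been taken off Dox. Day 14 against day 7 gave 1 member in the pancreas (*Smad5*, described above, 11.4% of genes passed), 0 in the liver and 0 in the lungs. In the latter pair 0% of genes passed in edgeR, 425 of 16913 and 771 of 16220 tested had an unadjusted p under 0.05 and DESeq2 called 15 and 7. *Smad4* was at 0.00 ± 0.08 for pancreatic, 0.08 ± 0.14 for liver and 0.28 ± 0.12 for lung libraries (adjusted p = 0.995, 1 and 0.992). *Smad7* in the liver was at -0.53 ± 0.19 (adjusted p = 1 in edgeR).

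The genes around the SMADs were followed in 7 lists of the pathway, for which the median label effect over all genes tested was 0.01. Of 32 known TGF-β and SMAD3 target genes, 17 were lower with the label Smad4ON and 0 higher (all genes: 9.64% lower and 10.1% higher), with a median of -0.75 on the log2 scale. *Itga5*, the fibronectin receptor subunit, fell by 1.22, *Has2*, a hyaluronan synthase, by 1.94, and *Pmepa1*, a membrane protein that sequesters SMAD2 and SMAD3, by 0.78. Of 16 known BMP targets, 5 were lower and 0 higher (median -0.65), among them *Msx1* (-1.11) and *Gata3* (-0.91), both transcription factors, and *Smurf1* (-0.40), a ubiquitin ligase for SMADs. Some genes stand in more than 1 of the 7 lists, and both target lists hold *Smurf1* and *Bambi*. Without the paired-end library the counts were 14 and 3, and among the 25 libraries without *mt-Co3* counts 15 and 4. Among the 10 with them they were 0 and 0, where 3 of 17076 genes passed. Of 10 fibroblast markers 0 passed in the same contrast (median -0.10), and of 8 acinar markers 3 were lower (median -2.36). Higher with the label Smad4ON were 3 of 10 carcinoma and ductal markers (median 0.16), 2 of 10 immune (0.49), 2 of 8 hepatocyte (0.67), 2 of 10 lung epithelium (0.35) and 1 of 10 endothelial markers (0.11), with 0 lower, and the part of these cells in the target lists was not tested.

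Ligands and receptors moved in both directions. Of 17 genes of the TGF-β and activin list, 6 were lower and 2 higher with the label Smad4ON (median -0.36). Among all genes tested, 9.64% passed as lower and 10.1% as higher. The latent TGF-β binding proteins *Ltbp1* (-1.07), *Ltbp4* (-1.02) and *Ltbp3* (-0.53) were lower, and the activin receptors *Acvr1b* (+0.51) and *Acvr2a* (+0.31) higher. Of 21 BMP ligands, receptors and antagonists, 7 were lower and 3 higher (median -0.43). *Bmp7* (-1.91), *Fstl3* (-1.32), an activin antagonist, and *Bmp1* (-1.26), a procollagen protease, were lower, and *Bmp3* (+1.57), *Bmp8a* (+0.73) and *Bmp4* (+0.56) higher.

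Regulators of SMAD turnover and DNA-binding partners of SMADs followed, beside 19.8% of all genes that passed. Of 33 SMAD regulators, 5 were lower and 1 higher (median -0.09), with *Smurf2* at -0.25 and *Tob1*, a BMP antagonist in the nucleus, at +0.42. Of 34 partners and co-regulators, 9 were lower and 2 higher (median -0.10). *Wwtr1*, which encodes TAZ, was at -0.86, *Snai2*, which drives mesenchymal change, at -0.82 and *Runx1* at -0.35, while *Atf3* was at +0.51 and *Klf5*, an epithelial transcription factor, at +0.30. Of 15 genes of the TAK1 and MAPK branch, which acts beside the SMADs, 2 were lower and 0 higher (median -0.07), *Rhoa* (-0.31) and *Mapk9* (-0.21). Neither the SMAD regulators nor this branch exceeded the share of all genes that passed.

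**Figure D5:**
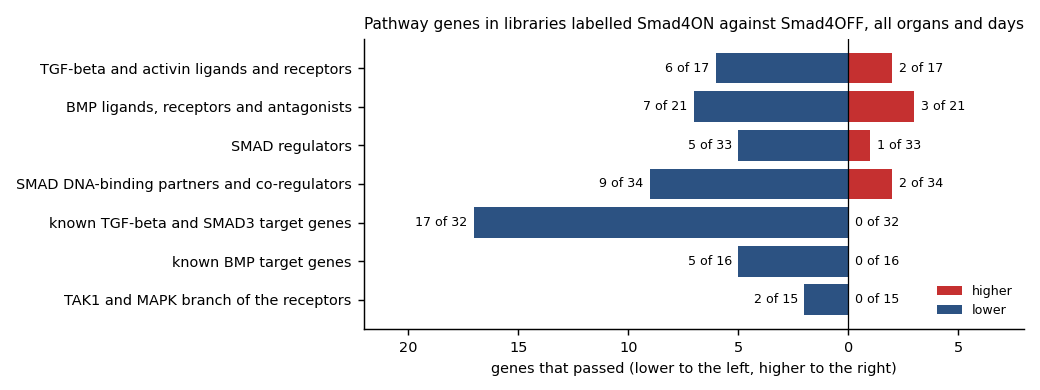
Number of tested genes in each of 7 pathway lists that passed the label contrast averaged over organs and days, lower with the label Smad4ON to the left and higher to the right, with the number tested beside each bar. In the TGF-β and SMAD3 target list 17 of 32 genes are lower and 0 higher, and in the TAK1 and MAPK list 2 of 15 are lower (all genes: 9.64% lower and 10.1% higher).

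By organ, 22 of the 32 TGF-β and SMAD3 targets were lower and 3 higher in the liver than in the pancreas (median -0.84, against 0.06 over all genes tested, of which 46.6% passed in either direction). In the lungs 21 were lower and 4 higher (median -0.86, against 0.05 over all genes, of which 48.2% passed). Several of these genes, such as *Tagln* (-3.10 and -3.63), are also expressed by fibroblasts, whose markers were lower in both organs. *Id1*, a direct BMP target, was higher in liver (+1.51) and lungs (+1.27), while *Msx1* (-2.17 and -3.36), of the same list, was lower. Between liver and lungs, 6 targets of TGF-β were higher in the liver and 7 lower (5 and 13 without the paired-end library), where 18.6% of all genes passed in either direction. Among them *Col1a2* was at +3.42 and *Ctgf* at -0.96. *Col1a1* and *Col1a2* also stand in the fibroblast marker list, which summed to 35899 CPM in the paired-end liver library and 262 to 4329 CPM in the other 10. *Tgfbr1*, the type I TGF-β receptor, was lower in the liver by -0.48 (adjusted p = 0.00041).

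The ligands also differed by organ. *Tgfb2* was lower in the lungs than in the pancreas by -3.49 (adjusted p = 3.55e-08; 49.1 to 134 CPM in the pancreas and 1.48 to 15.4 CPM in the lungs), *Gdf15* was higher in liver (+1.45) and lungs (+1.95), and *Bmp3* was higher in both (+3.63 and +2.07). Of the SMAD regulators, *Usp11*, a deubiquitinase, was lower in both (-1.22 and -0.94) and *Wwp1*, a ubiquitin ligase, higher (+0.49 and +0.44). *Klf5* was higher in liver (+1.00) and lungs (+0.89), and *Zeb1*, a repressor of epithelial genes, was lower in the liver (-1.49, adjusted p = 1.41e-06).

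The genes whose log2 CPM followed each member most closely over the 35 libraries, among 17546 others, were read by Pearson's r as a description, since libraries share organ, label and depth. *Smad5* was followed most closely by *Kifap3* (r = 0.94), *Fam168a* and *Picalm* (both 0.93), *Smad3* by *Clcf1* (0.90), *Dusp10* (0.85) and *Padi2* (0.84), and *Smad6* by *Klhl36* (0.89), *Lrfn4* (0.87) and *Atp13a2* (0.84). *Smad7* was most like *Rhob* (0.88), *Ano8* (0.87) and *Mex3d* (0.85), and *Smad4*, whose libraries form 2 separate sets by label, most like *Plxna4* (0.83), *Ptk2b* (0.83) and *Slc9a5* (0.82). *Smad2* was followed by *Pak2* (0.83), *Ahctf1* and *Oxsr1* (both 0.82), and *Smad1* by *Zfp628* (0.75), *Atp13a1* and *Sbk1* (both 0.74). For *Smad9*, whose values are near the floor, *Scgb3a1* (0.80), *Ky* (0.73) and *Ear2* (0.72) came first.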

How the data were processed

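RNA-seq of mKate2-positive cells was analysed in 35 libraries made with a stranded poly(A) kit and read at 75 bp, single-end except for 1 library. The authors trimmed reads with Trimmomatic 0.36 after FastQC 0.11.5, aligned them to GRCm38 with STAR 2.5.3a and deposited counts per gene from featureCounts 1.6.3, whole numbers without normalization (tools and versions from the submitters' processing notes). Whether the counting used strand is not given in the sources used here. Columns were joined to labels by name, with 0 unmatched.

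Genes were filtered with filterByExpr (at least 10 counts, 15 in total), TMM scaling was applied, and the test was that of edgeR 4.0.16 (quasi-likelihood, robust) in R 4.3.3, after a check on simulated data. Label contrasts took the libraries of 1 organ and day, or all 35 with organ and day as strata. Organ contrasts took all 35 with label and day as strata, day contrasts 1 organ with the label, and liver was set against lungs by the interaction of organ and label. P-values measure the spread between the numbered mice, some of which may share a cell line. Ratios and levels between genes used CPM per kilobase of the deposited transcript length. Figures used matplotlib 3.10.9 in Python 3.11.15.

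Named genes were all 8 members, the 3 genes most correlated with each (log2 CPM with a pseudocount of 0.5), and from each pathway list up to 3 genes per direction of the average label effect and 2 per direction of each organ contrast, by lowest adjusted p. The members, lists and tests were chosen with earlier results of these data known. Marker lists were summed as CPM.

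Mouse numbers recur across labels, so the deviations of same-numbered libraries from their group means were correlated. In the lungs on day 14 all 4 pairs gave 0.49 to 0.63, and only there was the block read as a possible pairing. Replicates 3 and 4 of both labels had *mt-Co3* counts there, and replicates 1 and 2 had none. This check cannot tell a pairing from a split that follows these counts. Alternatives were DESeq2 1.42.0, its size factors, no filter, a 2-fold threshold, the block, 1 fit of 12 groups, single labels, leaving out each library or the paired-end one, and *mt-Co3* counts as a covariate or a split. Lone libraries in an arm were assumed to vary like the other group. Single-cell, chromatin and protein data were not used here. A further allele that all groups share is not reported here.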

Additional observations from a re-analysis of the deposited data

How the results depend on the processing

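Over 2552 refits of the members' fold changes, 2417 stayed on the same side of the threshold and 0 turned sign where called. A change of sign was not counted where neither fit passed. Of 21 calls of members, 13 were kept with the mouse-number block. Of 11 organ calls, 5 were kept in libraries labelled Smad4OFF alone. In those labelled Smad4ON alone, 5 of the 10 calls tested were kept and 3 others were gained. Of 4462 refits of other named genes 4242 stayed on the same side, and 1 turned sign: *Ets1*, liver against lung, was at 0.053 in libraries labelled Smad4OFF alone, against -0.48. Counts of members that passed are given next, and the cause of a change was not tested. For most settings the share of all genes that passed is not set beside them. A rise or fall is therefore not read as particular to the members. With a 2-fold threshold added, the count went from 3 to 1 for the pancreas of day 14, from 3 to 1 in the average label effect, from 3 to 0 in liver against pancreas, from 6 to 1 in lung against pancreas, from 2 to 0 in liver against lung and from 1 to 0 in the day contrast of the pancreas. With DESeq2 it was 2 (from 1) and 2 (from 0) for the liver of days 7 and 14, and 1 (from 0) for the lungs of day 7. With no filter it was 2, 1 and 1 in the same comparisons, 0 in liver against lung and 0 in the day contrast of the pancreas, which was also 0 with DESeq2's size factors. With 1 fit of all 12 groups it was 1 for the pancreas of day 14, 3 and 1 for the liver of days 7 and 14 and 1 for the lungs of day 7. In libraries labelled Smad4OFF alone it was 1 in liver against pancreas and 0 in liver against lung, and in those labelled Smad4ON alone 2 in lung against pancreas. Among libraries with *mt-Co3* counts the average label effect gave 1, and among those without them the liver on day 7, with 1 library against 2 and chosen after seeing the data, gave 4. Leaving out 1 library gave 1 to 1 and 1 to 5 for the pancreas of days 7 and 14, 0 to 3 and 0 to 1 for the liver, 0 to 0 and 1 to 1 for the lungs, 2 to 3 for the average label effect, 1 to 4, 5 to 6 and 0 to 3 in the organ contrasts in the order above, 0 to 1 in the day contrast of the pancreas and 0 to 1 in the day 7 difference between liver and lungs.

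The mouse number as a replicate block gave 0 and 1 members for the pancreas of days 7 and 14 (*Smad4* on day 7 at -2.35, adjusted p = 0.0598), 0 for the liver of day 7 and 0 in the day contrast of the pancreas, and moved the genes passing from 323 to 0, from 1837 to 1093, from 71 to 0 and from 1717 to 0. It also moved them from 305 to 0 in the day 7 difference between liver and lungs and from 0 to 4 for the lungs of day 7. Correlations of same-numbered libraries were -0.25 to -0.14 and 0.05 to 0.08 for the pancreas of days 7 and 14, -0.31 to 0.29 and 0.03 to 0.48 for the liver, and -0.33 to 0.39 for the lungs of day 7. Outside the lungs on day 14 the libraries were therefore taken to share only a number. Libraries that correlated best with their own number were 0 of 4 and 4 of 4 in the pancreas of days 7 and 14, 1 of 4 and 2 of 6 in the liver and 1 of 4 and 3 of 8 in the lungs. In the pancreas on day 14, with only 2 pairs, and in the lungs on day 14, any pairing is a hint from the data and not the design. Depth limits *Smad9* alone among the members.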
